A study of Mus musculus with 9 samples.

Results

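The ATF4 amino acid stress genes are 10 genes, taken by their symbols from the deposited table of 54532 genes: Atf4, Ddit3, Trib3, Asns, Phgdh, Psat1, Mthfd2, Slc7a5, Chac1 and Ddit4. All 10 had counts above 50 in every library and all 10 entered the test of each comparison. Their mRNA was measured by RNA-Seq in cultured mouse heart cells, in 9 libraries that fall into 3 groups of 3. The study's methods speak of biological replicates, but of fewer per condition than the 3 libraries that each group holds here. The methods do not say whether the libraries of a group came from separate cultures or animals. Hence p-values measure only the spread between these libraries, part of which may be technical.

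The first group, pECDCs, are primary cardiosphere-derived cells of C57BL/6 mice, grown out from the ventricle epicardium of animals aged 6 weeks. Their library titles begin with P0, whereas the study's methods state that primary ECDCs were used at passage 3, so their passage is not settled. The second group, iECDCs, are such cells after lentiviral transduction with human telomerase (hTERT) and puromycin selection, at passage 30, so hTERT and long culture cannot be told apart in the comparison with pECDCs. The third group received SB431542, a small molecule that blocks the kinase of TGF-β type I receptors. For this group the sources differ: the labels give passage 30 immortalized cells treated for 3 days, whereas the study's methods describe a single epithelial clone derived from treated pECDCs. The inhibitor was used at 10 µM, and a treatment time of 10 days also occurs beside the 3 days of the labels. Hence the untreated counterpart of the treated cells is not settled, and both comparisons are given, with iECDCs and with pECDCs. In such bulk samples, fewer cells of a type and less RNA per cell cannot be told apart.

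ATF4 is a transcription factor of the integrated stress response. When amino acids run short, when misfolded protein builds up in the endoplasmic reticulum (ER) or when heme is lacking, kinases phosphorylate the translation factor eIF2, general protein synthesis slows, and the mRNA of Atf4 is translated more. ATF4, often paired with a C/EBP protein, binds C/EBP-ATF response elements and raises genes that make, import and charge amino acids, and mTORC1 signalling can raise several of the same biosynthetic genes. Since ATF4 is set largely by translation and protein turnover, the mRNA level of Atf4 is not a measure of its activity.

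The members' promoters were searched for the C/EBP-ATF response element as TGATGNAA, or TTNCATCA on the other strand, in windows of 250 bases before to 50 bases after the RefSeq start (GRCm38.p6). Of the 9 members matched in that table, 3 held it, namely Chac1, Asns and Trib3. Among all 27025 genes with such windows, 4.51% held it, and among all 32851 windows 3.97% did. The windows of Atf4, Ddit3, Phgdh, Psat1, Mthfd2 and Ddit4 had no match, which says only that these letters are not in these windows, and Slc7a5 was not matched. The matches that lie before the RefSeq start are shown 5′ to 3′ on the strand of the gene, with the match in capitals. They are candidate sites of the factor that names the set, and binding there was not tested.
Chac1, chr2:119351019-119351086, plus strand, match 193 bases before the start: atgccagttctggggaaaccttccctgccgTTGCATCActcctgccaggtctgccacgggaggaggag
Asns, chr6:7693214-7693243, minus strand, match 23 bases before the start: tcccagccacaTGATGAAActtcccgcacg
The Chac1 stretch lies upstream of the deposited gene, whereas the Asns stretch lies within the deposited gene span, close to its 5′ end. In Trib3 the match, TTACATCA, begins 14 bases after the RefSeq start.

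Total counts ranged from 16568306 to 23951392 per library, and mitochondrial genes took 1.16% to 1.77% of them. The cells carried the surface marker genes of cardiosphere-derived cells: Eng, Thy1, Ly6a and Cd44 together reached 244 to 308 FPKM in every library, a count scaled by gene length and library depth. Within that sum, Ly6a was 5.08 to 7.11 FPKM in iECDCs and 16.2 to 37.0 in SB431542-treated cells (log2 fold change 2.25, adjusted p = 0.00262), and Cd44 was 67.7 to 78.1 and 16.6 to 35.0 FPKM (-1.66, adjusted p = 0.00489), in edgeR. The 5 endothelial markers summed to at most 0.144 FPKM, with Tie1 at 0 counts in all libraries. The 5 cardiomyocyte markers reached at most 1.71 FPKM, the 5 blood cell markers 4.23 to 8.51 FPKM, most of it Csf1r, and the 8 epithelial and mesothelial markers 18.7 to 39.8 FPKM, most of it Krt19. Other markers differed with treatment at low levels: the mesothelial gene Upk3b was 0.0561 to 0.166 FPKM in iECDCs and 1.16 to 1.36 in treated cells (log2 fold change 3.45, adjusted p = 0.000912), and Wt1, a transcription factor of the epicardium, was at most 0.0196 FPKM in iECDCs and 0.396, 0.107 and 0.348 in treated replicates 1 to 3. The cardiomyocyte gene Tnnt2 was 1.12 to 1.67 FPKM in iECDCs and 0.0429 to 0.25 in treated cells (-3.07, adjusted p = 0.00378). The part of these differences in the members' values in treated cells was not tested. In SB431542-treated cells, 7 of 10 TGF-β target genes were lower than in iECDCs and 1, Tgfbi, was higher, with a median log2 fold change of -2.35. The libraries of iECDC replicate 3 and SB431542-treated replicate 2 stood apart from the others of their group. The chi-square per degree of freedom between libraries was 2.70 to 4.23 among pECDCs and 4.61 between iECDC replicates 1 and 2, but 24.9 and 30.8 against iECDC replicate 3. It was 3.79 between SB431542-treated replicates 1 and 3, but 70.3 and 71.5 against SB431542-treated replicate 2. Results that rest on iECDC replicate 3 or SB431542-treated replicate 2 are therefore given with and without them.

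Within pECDCs the members spanned a wide range of levels per length. Ddit4 was highest at 112 ± 1.92 FPKM (SD, n = 3), followed by Atf4 at 80.0 ± 1.44, Phgdh at 67.5 ± 2.27, Psat1 at 44.7 ± 1.17 and Asns at 25.1 ± 0.785 FPKM. Slc7a5 at 17.6 ± 0.560 and Mthfd2 at 16.5 ± 1.44 FPKM came next, and their libraries overlapped. Below them stood Ddit3 at 7.89 ± 0.183 FPKM, and then Chac1 at 2.42 ± 0.375 and Trib3 at 2.40 ± 0.245 FPKM, whose libraries overlapped as well. Thus Phgdh, Psat1 and the regulator Atf4 were among the more abundant members in the primary cells, and Ddit3, Chac1 and Trib3 were the lowest of the set. Levels did not part enzymes from stress-induced genes, since Ddit4, which also responds to stress, was the highest and the enzyme Mthfd2 was in place 7. In iECDCs Phgdh had the highest mean, at 105 ± 26.4 FPKM, but this rested on iECDC replicate 3 with 135 FPKM. In iECDC replicates 1 and 2 Phgdh was at 89.5 and 89.8 FPKM, and overlapped Ddit4 at 98.5 and 86.8 and Atf4 at 94.6 and 87.0. In SB431542-treated cells Phgdh was the highest member in each library, at 96.7 ± 38.4 FPKM, and Ddit4 had moved to place 5 at 24.7 ± 2.06 FPKM, where it overlapped Asns and Slc7a5.

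**Figure D1:**
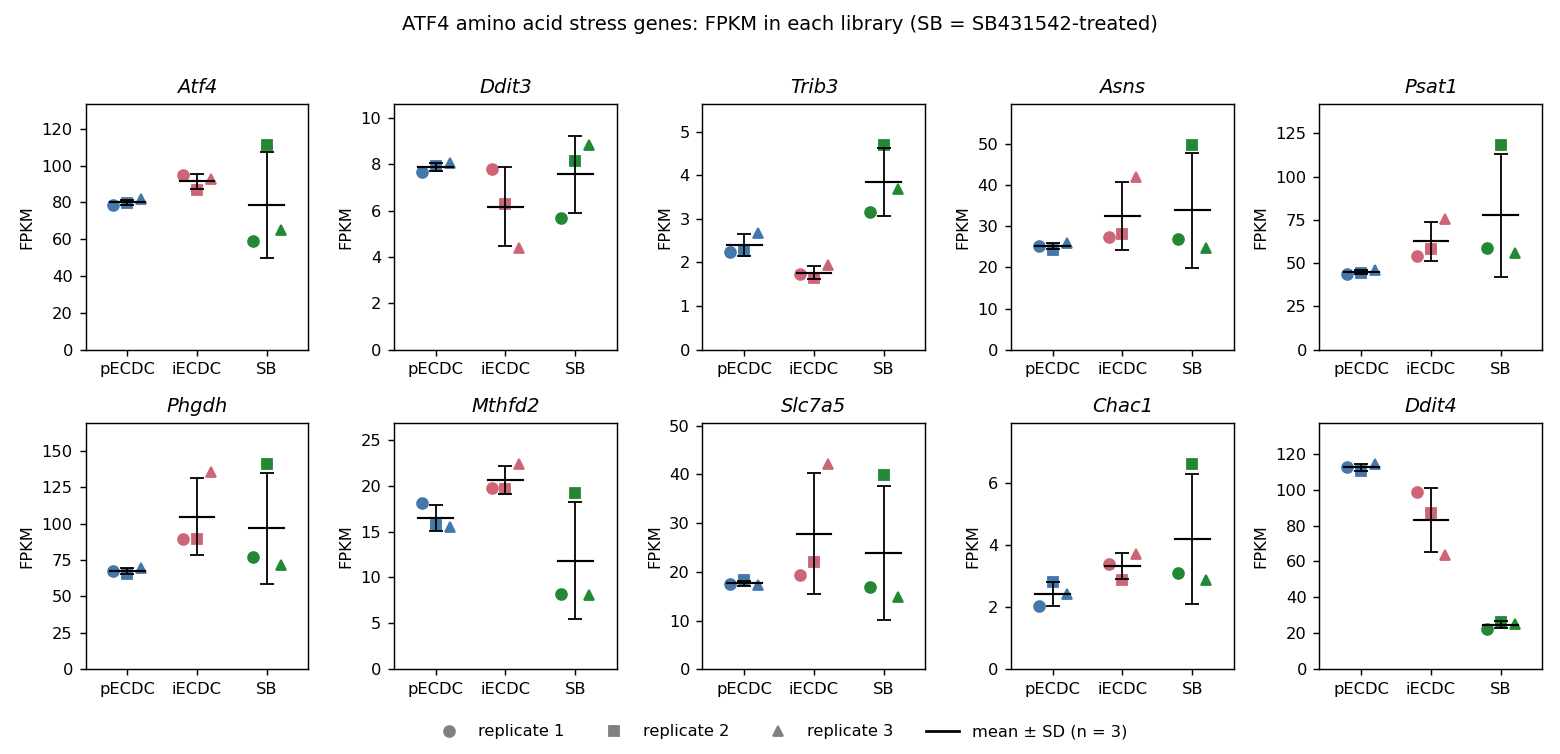
FPKM of the 10 members in each library, 1 panel per gene with its own axis from 0; colours and columns are the groups, marker shapes the replicate numbers, and lines the mean ± SD of 3 libraries. Ddit4 lies between 22.4 and 26.4 FPKM in SB431542-treated cells, below all other libraries, and SB431542-treated replicate 2 is the highest of its group for every member but Ddit3.

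Among the regulators, Atf4 itself (chr15:80255184-80257541, plus strand, GRCm38) had the second highest mean of the 10 in each group. It had 78.8, 79.7 and 81.6 FPKM in pECDC replicates 1 to 3, 94.6, 87.0 and 92.9 in iECDCs, and 59.2, 111 and 65.1 in SB431542-treated cells. All 3 iECDC libraries were above all 3 pECDC libraries, while the treated group held both the lowest and the highest library of the study. Ddit3 (chr10:127290774-127296288, plus strand) encodes CHOP, a partner of ATF4 that is linked to cell death in prolonged ER stress. It had 7.69, 7.92 and 8.05 FPKM in pECDCs, 7.81, 6.29 and 4.41 in iECDCs, and 5.69, 8.16 and 8.85 in treated cells, so that the 3 groups overlapped. Ddit3 overlaps Mars, a gene on the opposite strand with 1653 to 3294 counts per library, and without stated strand in the counting the reads of both in the shared stretch cannot be told apart. Trib3 (chr2:152337422-152344032, minus strand) encodes a pseudokinase that is induced by ATF4 and CHOP and dampens both ATF4 and AKT signalling. It had 2.24, 2.27 and 2.68 FPKM in pECDCs, 1.73, 1.63 and 1.93 in iECDCs, and 3.17, 4.70 and 3.67 in treated cells. The 3 groups of Trib3 did not overlap, with iECDCs lowest and treated cells highest, at 57 to 210 counts per library.

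Of the enzymes, Asns (chr6:7675169-7693254, minus strand) makes asparagine from aspartate and glutamine. It had 25.3, 24.3 and 25.8 FPKM in pECDCs, 27.4, 28.1 and 42.1 in iECDCs, and 27.0, 49.8 and 24.6 in treated cells. Phgdh (chr3:98313170-98339990, minus strand), the first enzyme of serine synthesis from glucose, had 67.7, 65.2 and 69.7 FPKM in pECDCs, 89.5, 89.8 and 135 in iECDCs, and 77.3, 141 and 71.9 in treated cells. Psat1 (chr19:15904678-15947337, minus strand), the next enzyme of that pathway, had 43.6, 44.6 and 45.9 FPKM in pECDCs, 54.3, 58.3 and 75.4 in iECDCs, and 58.6, 118 and 55.6 in treated cells. In all of these genes the pECDC libraries were close together, iECDC replicate 3 was above iECDC replicates 1 and 2, and SB431542-treated replicate 2 was above treated replicates 1 and 3. Mthfd2 (chr6:83305691-83325908, minus strand) encodes the mitochondrial folate enzyme that carries one-carbon units from serine. It had 18.1, 15.7 and 15.5 FPKM in pECDCs, 19.8, 19.7 and 22.3 in iECDCs, and 8.19, 19.2 and 8.09 in treated cells. All treated libraries of Mthfd2 were below all iECDC libraries, but treated replicate 2 lay close to the iECDCs and the other two far below.

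Slc7a5 (chr8:121881150-121907694, minus strand) encodes LAT1, the light chain of the importer of leucine and other large neutral amino acids. It had 17.4, 18.3 and 17.2 FPKM in pECDCs, 19.3, 22.1 and 42.1 in iECDCs, and 17.0, 39.8 and 14.8 in treated cells. The same 2 libraries thus had more than any other, and the remaining 7 lay between 14.8 and 22.1 FPKM. Chac1 (chr2:119351229-119354381, plus strand), which breaks down glutathione, had 2.04, 2.79 and 2.43 FPKM in pECDCs, 3.39, 2.86 and 3.70 in iECDCs, and 3.10, 6.59 and 2.87 in treated cells, from 77 to 227 counts. Only SB431542-treated replicate 2 was far from the rest. Ddit4 (chr10:59949669-59951834, minus strand) encodes REDD1, an inhibitor of mTORC1 that also responds to hypoxia, glucocorticoids and energy stress. It had 113, 110.4 and 114 FPKM in pECDCs, 98.5, 86.8 and 63.6 in iECDCs, and 22.4, 26.4 and 25.4 in treated cells. The 3 groups of Ddit4 did not overlap, and here the treated libraries agreed within a narrow range, treated replicate 2 included.

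The comparison of iECDCs with pECDCs asks how the immortalized line at passage 30 differs from the primary cells. In iECDCs, the serine and one-carbon enzymes Phgdh, Psat1 and Mthfd2 were modestly higher. Phgdh rose 1.54-fold (log2 fold change 0.62, SE 0.15, adjusted p = 0.0204), Psat1 1.39-fold (0.47, SE 0.11, adjusted p = 0.0202) and Mthfd2 1.24-fold (0.31, SE 0.08, adjusted p = 0.0366) in the quasi-likelihood test of edgeR, with p-values adjusted by Benjamini-Hochberg. None of the 10 members passed as lower and 7 did not pass by edgeR, although 9 of 10 had an unadjusted p under 0.05. Of these 7, Atf4 was at 0.18 (95% interval 0.04 to 0.32, adjusted p = 0.0762) and Slc7a5 at 0.64 (0.09 to 1.19, adjusted p = 0.109) on the log2 scale. Asns was at 0.35 (adjusted p = 0.134), Chac1 at 0.44 (0.107), Ddit4 at -0.45 (0.0527), Trib3 at -0.46 (0.0664) and Ddit3 at -0.36 (0.207) by the same edgeR test. Among all 13752 tested genes, 16.4% passed the adjusted threshold of 0.05, 7.21% higher and 9.21% lower, so that 3 of 10 members higher compares with 7.21% of all genes. The median log2 fold change of the members was 0.33, against -0.0018 for all genes, and the groups did not overlap in 9 of 10 members against 39.9% of all genes.

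Without iECDC replicate 3, the same comparison gave 5 members higher and 2 lower, while 31.7% of all genes passed, 15.5% higher and 16.2% lower. Phgdh, Psat1 and Mthfd2 remained higher, at log2 fold changes of 0.40, 0.32 and 0.25. Atf4 (0.17, adjusted p = 0.00748) and Slc7a5 (0.22, adjusted p = 0.0121) joined them, and Ddit4 (-0.29, adjusted p = 0.000481) and Trib3 (-0.52, adjusted p = 0.0248) passed as lower in edgeR. The fold change of Slc7a5 was 0.64 with iECDC replicate 3 and 0.22 without it, and that of Asns 0.35 and 0.13. The calls also depended on the other libraries: 0 of 10 members passed without pECDC replicate 2 or without pECDC replicate 3, 1 without pECDC replicate 1, 6 without iECDC replicate 1 and 2 without iECDC replicate 2. Of all genes, 1036, 1065, 1056, 2126 and 1829 passed in these fits, in the same order, against 2258 with all 6 libraries. All directions held in each of these fits. A fit of all 9 libraries together, whose spread includes that of the treated cells, called 0 of 10 members and 671 genes, and DESeq2 called 4 members higher and 1 lower among 2502 genes, Atf4 (adjusted p = 0.0442) among the higher ones.

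The comparison of SB431542-treated cells with iECDCs asks what differs with the inhibitor if the treated cells are passage 30 cells, as the labels have it. Ddit4 was 3.33-fold lower in treated cells (log2 fold change -1.74, SE 0.17, adjusted p = 0.000817) and Trib3 was 2.20-fold higher (1.14, SE 0.21, adjusted p = 0.00652) in edgeR's quasi-likelihood test. The other 8 members did not pass. Mthfd2 was at -0.79 (95% interval -1.50 to -0.08, adjusted p = 0.0868), Atf4 at -0.21 (-0.72 to 0.30), Slc7a5 at -0.21 (-1.15 to 0.74) and Phgdh at -0.11 (-0.74 to 0.52). Asns was at 0.07 (-0.57 to 0.71), Psat1 at 0.32 (-0.34 to 0.97), Ddit3 at 0.30 (-0.26 to 0.87) and Chac1 at 0.35 (-0.39 to 1.10), intervals that leave room for changes of either sign. Of all 13559 tested genes 30.0% passed, 16.0% higher and 14.0% lower, which compares with 1 member of 10 in each direction. The groups did not overlap in 3 of 10 members, against 46.5% of all genes. Ddit4 and Trib3 passed in all 16 alternative fits.

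Leaving out treated replicate 2 moved several of these values. Without it, 1 member was higher and 5 were lower, while 50.2% of all genes passed, 25.3% higher and 24.8% lower. Mthfd2 was then at -1.33 (95% interval -1.56 to -1.10, adjusted p = 1.11e-05) and Atf4 at -0.55 (-0.76 to -0.33, adjusted p = 0.00132) in edgeR. Slc7a5 at -0.79 (adjusted p = 0.0456) and Phgdh at -0.48 (adjusted p = 0.0455) passed narrowly, beside Ddit4 at -1.79 and Trib3 at 0.97. Asns, Psat1 and Chac1 changed sign without passing, to -0.32, -0.13 and -0.14. Without iECDC replicate 3 as well, the same 6 members passed, with Mthfd2 at -1.27, Atf4 at -0.54, Slc7a5 at -0.37 and Phgdh at -0.26, and 64.5% of all genes passed, 32.6% higher and 31.9% lower. Hence Ddit4 and Trib3 differed with and without these libraries, whereas Atf4, Phgdh and Slc7a5 passed only where treated replicate 2 was left out. Mthfd2 also passed with all 6 libraries in DESeq2 (adjusted p = 0.0307), and in edgeR without a filter on low counts (0.00115) or with all 9 libraries in the fit (0.0443).

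The comparison of SB431542-treated cells with pECDCs applies if the treated cells are a clone of the primary cells, as the study's methods have it. It shares the treated libraries with the comparison above and the pECDC libraries with the first one. Again Ddit4 was lower, by 4.52-fold (log2 fold change -2.17, SE 0.08, adjusted p = 2.51e-05), and Trib3 was higher, by 1.61-fold (0.69, SE 0.18, adjusted p = 0.0228), in edgeR's quasi-likelihood test. The other 8 members did not pass, among them Psat1 at 0.80 (95% interval 0.15 to 1.45, adjusted p = 0.0599) and Chac1 at 0.81 (0.02 to 1.59, adjusted p = 0.101). The groups did not overlap in Psat1, Chac1, Phgdh, Trib3 and Ddit4, 5 of 10 members, against 51.5% of all genes. Psat1 passed as higher by DESeq2 (adjusted p = 0.0125), which called 3 members, and in edgeR without a filter on low counts (0.0183), with all 9 libraries in the fit (0.0355) and without treated replicate 3 (0.0440). Phgdh was at 0.53, Slc7a5 and Asns at 0.44, Mthfd2 at -0.47, Ddit3 at -0.05 and Atf4 at -0.02 on the log2 scale. Of all 14015 tested genes 34.8% passed, 17.9% higher and 17.0% lower.

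Without treated replicate 2, 3 members were higher and 4 lower than in pECDCs, while 64.1% of all genes passed, 31.7% higher and 32.3% lower. Psat1 was then at 0.36 (adjusted p = 1.03e-06), Phgdh at 0.15 (adjusted p = 0.00851), Mthfd2 at -1.01 (adjusted p = 1.17e-09) and Atf4 at -0.36 (adjusted p = 3.21e-06) in edgeR, so that within the serine and one-carbon enzymes Psat1 and Phgdh were slightly above and Mthfd2 was well below the primary cells. Slc7a5 turned from 0.44 to -0.14 (adjusted p = 0.0499). The call of Ddit4 held in all 15 alternatives. That of Trib3 held in 11, and its adjusted p was 0.0522 without treated replicate 3 and 0.0571, 0.0926 and 0.0961 without pECDC replicates 3, 2 and 1.

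**Figure D2:**
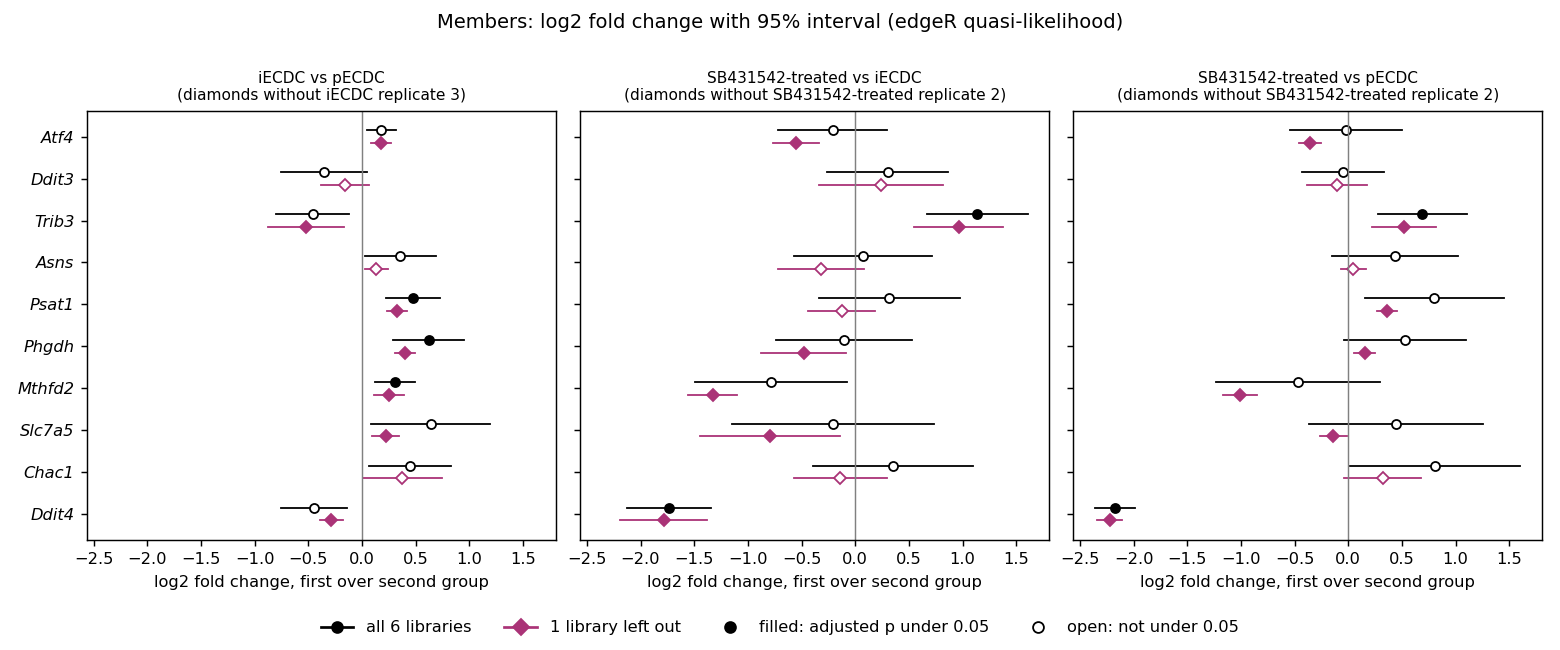
Log2 fold change of each member with its 95% interval in the 3 comparisons (edgeR quasi-likelihood); circles use all 6 libraries, diamonds leave out the library named above each panel, and filled marks have an adjusted p under 0.05. Ddit4 and Trib3 are filled in both comparisons of treated cells with and without SB431542-treated replicate 2, and Mthfd2 at -0.79 and -0.47 is filled only without it.

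The 2 libraries that stood apart differed from their group in the members themselves. In SB431542-treated replicate 2, all 10 members were above the mean of the other two treated libraries, 7 of them by more than 0.5 on the log2 scale, and the median was 0.94. Among all genes 13.0% were that much above, and the median was -0.0007. Slc7a5 stood highest at 1.33, then Mthfd2 at 1.24, Chac1 at 1.15, Psat1 at 1.06, Asns at 0.95, Phgdh at 0.92 and Atf4 at 0.85, whereas Trib3 at 0.47, Ddit3 at 0.21 and Ddit4 at 0.15 deviated less. In iECDC replicate 3, 3 members were above by more than 0.5, Slc7a5 at 1.02, Asns at 0.59 and Phgdh at 0.58, and 2 were below by that much, Ddit3 at -0.68 and Ddit4 at -0.55. Among all genes 7.85% and 11.6% were so far above and below. Atf4 was at 0.02 in iECDC replicate 3, so its mRNA did not stand apart there while Slc7a5, Asns and Phgdh did. In pECDCs no member deviated by more than 0.35 in any library.

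**Figure D3:**
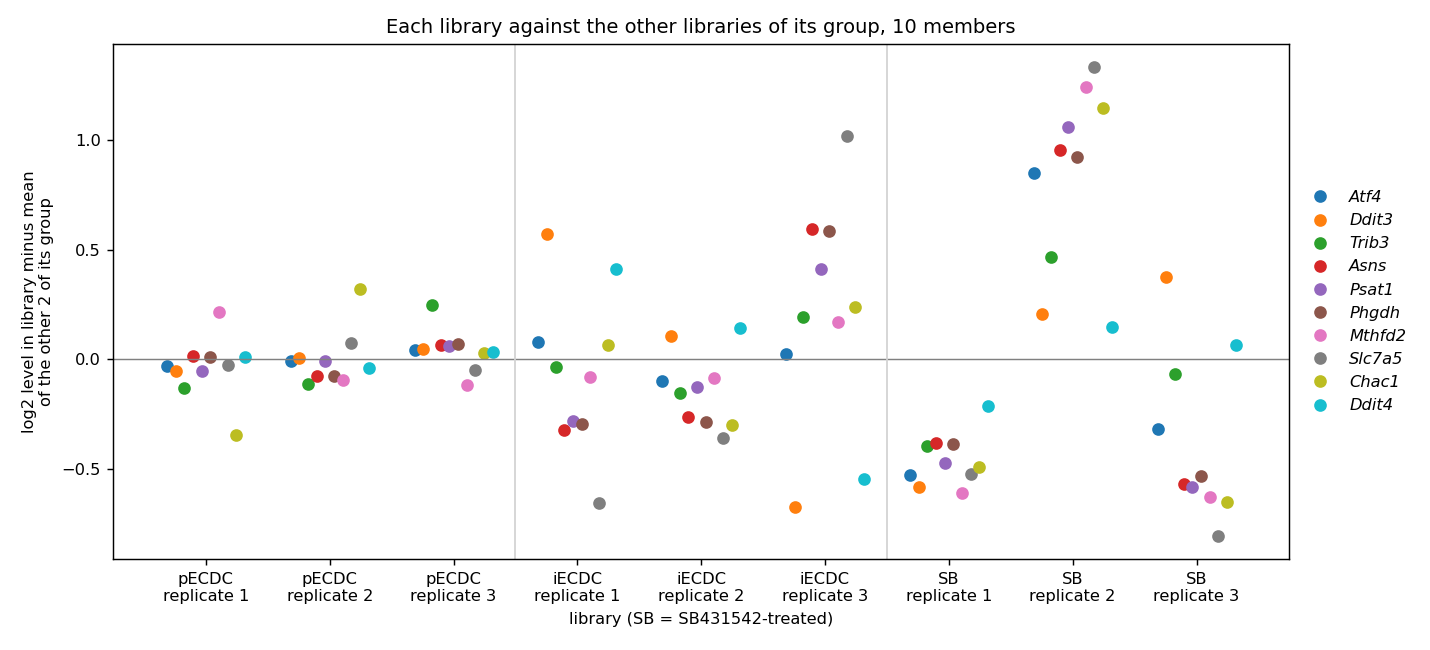
Log2 level of each member in each library minus the mean of the other 2 libraries of its group (counts scaled by TMM). The members of SB431542-treated replicate 2 lie between 0.15 and 1.33, iECDC replicate 3 is spread from -0.68 to 1.02, and the pECDC libraries lie within 0.35 of 0.

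Other properties of these libraries differed as well. In SB431542-treated replicate 2, 8 of 10 TGF-β target genes were above the mean of the other two treated libraries by more than 0.5. The remaining 2, Tgfbi and Col1a1, were below it by more than 0.5. Among all genes 13.0% were so far above and 16.6% so far below. In iECDC replicate 3, 3 of 10 TGF-β target genes were above by more than 0.5 and 0 below by that much, with a median of 0.17. Acta2 had 322 FPKM there, against 137 in each of the other two and 812 to 1898 in iECDCs, where iECDC replicate 3 was the highest. Mitochondrial genes took 1.52% of the counts in treated replicate 2 and 1.75% and 1.77% in the other two. The part of these differences in the members' levels was not tested.

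The further genes of the pathway were taken from 6 lists, and at most the 2 strongest genes in each direction are named per list and comparison. List counts stand beside the shares of all tested genes called by edgeR, 7.21% higher and 9.21% lower in iECDCs against pECDCs. For treated cells these shares were 16.0% and 14.0% against iECDCs, and 17.9% and 17.0% against pECDCs. Upstream of ATF4 stand the eIF2 kinases, the eIF2B subunits that recycle eIF2, the phosphatase subunits and regulators, 14 genes in all. In iECDCs against pECDCs, 1 of 14 was higher and 2 were lower: Eif2b3 at a log2 fold change of 0.31 (adjusted p = 0.0397), and the kinases Eif2ak3 (PERK, the sensor of ER stress) at -0.73 (0.00314) and Eif2ak2 (PKR, which responds to double-stranded RNA) at -0.42 (0.00941) in edgeR. In treated cells 4 of 14 were lower than in iECDCs and 5 of 14 lower than in pECDCs, and 0 were higher, by edgeR, with 5 and 6 of 14 at an unadjusted p under 0.05, while DESeq2 gave 0 higher and 4 lower in both comparisons. Eif2s1, the phosphorylated subunit of eIF2, was at 21.2 ± 6.62 FPKM (SD, n = 3) in treated cells and 42.7 ± 0.746 in iECDCs, 1.99-fold lower (adjusted p = 0.00903), and at a log2 fold change of -0.84 (0.0153) against pECDCs. Eif2b3 was at -0.89 (adjusted p = 0.0498) in treated cells against iECDCs, and Eif2ak3 at -0.52 (0.0346) against pECDCs. These calls held in 9 of 16 and 10 of 15 alternatives. In iECDCs against pECDCs, the call of Eif2b3 held in 7 of 15 and that of Eif2ak3 in 15 of 15.

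Of 15 other transcription factors and targets of the stress response, 14 were tested. In iECDCs 2 were higher than in pECDCs, the stress-induced regulators Nupr1 (0.65, adjusted p = 0.0378) and Atf5 (0.23, adjusted p = 0.0438), and 2 were lower, Vldlr (-0.69, 0.0105) and Klhl24 (-0.65, 0.0176), in edgeR. The calls of Nupr1 and Atf5 held in only 6 and 7 of 15 alternatives, those of Vldlr and Klhl24 in 13 and 12. In treated cells 6 were higher and 2 lower than in iECDCs. Klhl24 was at 6.31 ± 2.05 FPKM (SD, n = 3) against 1.31 ± 0.251 (log2 fold change 2.28, adjusted p = 0.00143). Atf3, a transcriptional repressor induced by many stresses, was at 2.51 ± 1.34 against 0.388 ± 0.0743 FPKM (2.68, adjusted p = 0.00718). The lower ones were Nupr1 (-1.28, adjusted p = 0.00605) and Gdf15, a secreted stress cytokine (-0.91, adjusted p = 0.00640). Against pECDCs 6 were higher and 3 lower, with the same 4 named genes in the same directions: Atf3 at 3.35, Klhl24 at 1.64, Nupr1 at -0.62 and Gdf15 at -0.51. The targets therefore did not move one way, as within the 10 members themselves, where Trib3 was higher and Ddit4 lower.

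Of 16 further genes of serine, glycine, one-carbon and proline synthesis, 2 were higher and 2 lower in iECDCs than in pECDCs. Shmt1, which splits serine to glycine in the cytosol, was higher (0.57, adjusted p = 0.00939). The lower ones were Aldh1l1 (-1.46, adjusted p = 0.000655) and its mitochondrial relative Aldh1l2 (-0.60, adjusted p = 0.00483), which oxidize formyl-tetrahydrofolate, in edgeR. In treated cells 4 were higher and 0 lower than in iECDCs, and 3 higher and 0 lower than in pECDCs, by edgeR and by DESeq2, with 5 and 3 of 16 at an unadjusted p under 0.05. Aldh1l1 was at 3.42 ± 1.80 FPKM (SD, n = 3) in treated cells, 0.373 ± 0.0191 in iECDCs and 1.02 ± 0.0990 in pECDCs. Its log2 fold change was 3.20 (adjusted p = 0.00284) against iECDCs, where Aldh1l2 was at 0.94 (0.00407). Thus Aldh1l1 and Aldh1l2 ran opposite to Mthfd2, lower in iECDCs than in pECDCs where Mthfd2 was higher.

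Of 13 other amino acid transporters, 1 was higher and 1 lower among the 12 tested in iECDCs against pECDCs: Slc7a11, the cystine importer (0.95, adjusted p = 0.00948), and Slc43a1, a neutral amino acid transporter (-0.57, adjusted p = 0.0133). In treated cells against iECDCs, 3 of 11 were higher and 1 lower. The higher ones named are the glycine transporter Slc6a9 (0.74, adjusted p = 0.0126) and the small neutral amino acid transporter Slc38a2 (0.56, adjusted p = 0.0164), and the lower one is Slc3a2 (-0.53, adjusted p = 0.0312), the heavy chain that LAT1 needs at the membrane. Slc3a2 was at 34.2 ± 6.97 FPKM (SD, n = 3) in treated cells and 49.7 ± 2.38 in iECDCs. Against pECDCs, 4 of 13 were higher and 3 lower, with Slc6a9 at 0.68, Slc38a1 at 0.54, Slc43a1 at -0.76 and Slc1a4 at -0.33.

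The 20 cytosolic aminoacyl-tRNA synthetases, which charge tRNAs and include many ATF4 targets, differed by small amounts. Their groups did not overlap in 18 of 20 genes between iECDCs and pECDCs, against 39.9% of all genes, with a median log2 fold change of 0.18. In iECDCs 4 of 20 were higher than in pECDCs and 0 lower, with Rars at 0.29 (adjusted p = 0.0106) and Cars at 0.27 (adjusted p = 0.0257), and 11 had an unadjusted p under 0.05 in edgeR, while DESeq2 gave 6 higher and 0 lower. In treated cells 0 were higher and 2 lower than in iECDCs, Rars at -0.65 (adjusted p = 0.0156) and Farsa at -0.39 (adjusted p = 0.0368), with 4 at an unadjusted p under 0.05 and 0 higher and 3 lower by DESeq2. Against pECDCs 2 were higher, Sars at 0.28 and Qars at 0.27, and 2 lower, Farsa at -0.36 and Dars at -0.31. Of these calls, that of Sars held in 7 of 15 alternatives, that of Qars in 9, and those of Farsa and Dars in 10 each.

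Of 15 tested genes for ER chaperones and ER-associated degradation, which answer to the other arms of the unfolded protein response, 0 were higher in any comparison by edgeR or DESeq2. By edgeR, 5 were lower in iECDCs against pECDCs, 2 in treated cells against iECDCs and 6 in treated cells against pECDCs, with 5, 2 and 8 at an unadjusted p under 0.05. Syvn1 (-0.47, adjusted p = 0.0107) and Herpud1 (-0.44, adjusted p = 0.00521) were lower in iECDCs. Dnajb11 (-0.59, adjusted p = 0.00609) and Manf (-0.58, adjusted p = 0.0140) were lower in treated cells than in iECDCs, and also than in pECDCs, at -0.45 and -0.69.

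Leaving out the libraries that stood apart raised most of these counts, as it did for all genes. Of all genes, 25.3% were higher and 24.8% lower against iECDCs without treated replicate 2, and 31.7% and 32.3% against pECDCs. The shares without iECDC replicate 3 were 15.5% and 16.2% in iECDCs against pECDCs. Without treated replicate 2, the tRNA synthetases had 0 higher and 14 of 20 lower against iECDCs, and 4 higher and 14 lower against pECDCs. The serine, one-carbon and proline genes, with no lower gene before, then had 5 higher and 6 lower against iECDCs, and 4 and 6 against pECDCs. The eIF2 genes had 3 higher and 5 lower against iECDCs and 2 and 7 against pECDCs, and the ER genes had 2 higher and 2 lower, and 2 and 10. The other stress genes had 6 higher and 4 lower against iECDCs and 9 and 5 against pECDCs, and the transporters had 4 and 5, and 4 and 7. Without iECDC replicate 3, 9 tRNA synthetases were higher and 1 was lower in iECDCs than in pECDCs, and the ER genes had 1 higher and 6 lower. The other lists then had 3 and 3 (eIF2), 5 and 3 (other stress genes), 3 and 5 (serine, one-carbon and proline) and 2 and 3 (transporters).

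The lists also parted in the 2 libraries that stood apart. In SB431542-treated replicate 2, all 20 tRNA synthetases were above the mean of the other two treated libraries, with a median of 0.48, whereas 1 of 15 ER genes was above and their median was -0.39. The 16 serine, one-carbon and proline genes had a median of 0.39, the 13 transporters 0.25, the 14 eIF2 genes 0.19 and the 14 other stress genes -0.04. In iECDC replicate 3, 14 of 20 tRNA synthetases were above, with a median of 0.15, and 2 of 15 ER genes, with a median of -0.23. Hence in SB431542-treated replicate 2 the higher levels of the members came with higher tRNA synthetase genes and with lower ER chaperone genes. In iECDC replicate 3, 8 of 10 members were above, with a median of 0.21, against -0.0043 for all genes. The medians of members, synthetases and ER genes thus lay on the same sides there as in treated replicate 2, by smaller amounts. So did those of the serine, one-carbon and proline genes (0.25) and, by a larger amount, of the other stress genes (-0.14). The medians of the eIF2 genes (-0.04) and of the transporters (-0.06) lay on the opposite side, and so did the members Ddit3 and Ddit4.

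**Figure D4:**
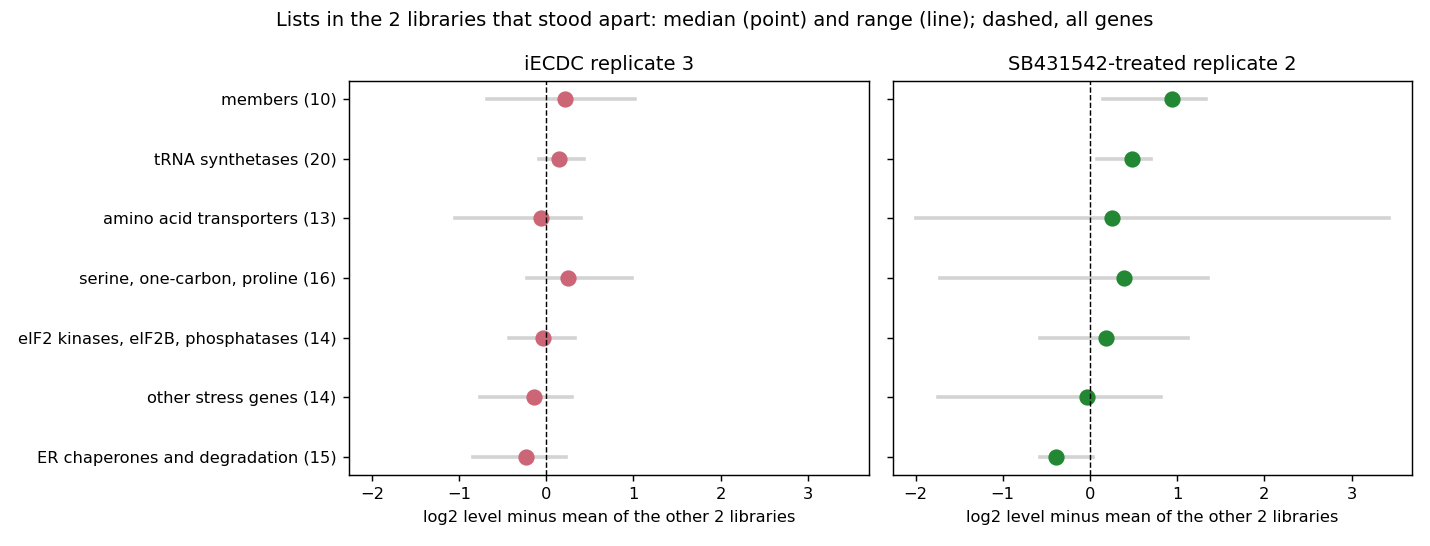
Log2 level in iECDC replicate 3 (left) and SB431542-treated replicate 2 (right) minus the mean of the other 2 libraries of the group; points are the median and lines the range over the genes of each list, with the number of genes in brackets and all genes as a dashed line. In treated replicate 2 the members' median is 0.94, the tRNA synthetases' 0.48 and the ER genes' -0.39.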

How the data were processed

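The authors deposited 1 table of 54532 genes with read counts and FPKM per library for all 9 libraries. The counts deposited by the authors are whole numbers per gene without normalization. The FPKM values deposited by the authors equal the count per kilobase of gene length divided by a constant of each library, within 1% for all genes with at least 20 counts but 1 value. The authors' log2 fold changes, p-values, adjusted p-values and group means in that table were not used. The submitters' processing notes name TopHat2 2.0.9, Bowtie2 2.0.6 and the mouse build mm9, while 53499 of the 54409 genes shared with GENCODE M21 had the same start and end as on GRCm38, the 10 members included. The counting program and its strand setting are not given in the sources used here. The labels and the study's methods also name different library kits and instruments.

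The tests of the counts were run in R 4.3.3 with edgeR 4.0.16 (TMM, filterByExpr with minimum count 10 and minimum total count 15, quasi-likelihood test, Benjamini-Hochberg adjustment over all tested genes, adjusted p under 0.05), each fit holding the 6 libraries of its pair of groups. The procedure was checked on simulated counts first. These counts had a common spread across genes and no library that stood apart, so the check does not cover such libraries. A second Ddit3 entry, at 0 counts, was left out. Levels are FPKM, since they are per length, and deviations between libraries of a group are log2 TMM-scaled CPM. The members and all gene lists were chosen with earlier results of these data known, and no list was tested as a whole. Beyond the members, at most 2 genes per direction were named per list and comparison, those with the largest fold change among genes past the threshold with a mean of at least 1 FPKM and groups that did not overlap; markers and TGF-β targets were named as a check, some genes that meet these rules are not reported here, and libraries that stood apart were identified from the counts. Alternatives were RLE and upper-quartile normalization, no filter, at least 10 counts in every library, DESeq2 1.42.0, all 9 libraries in the fit, a replicate block, limma 3.58.1 on log2(FPKM + 1) and log2(FPKM + 0.1), each library left out, and a log2 fold change of at least 1. Deviations of same-numbered libraries from their group means correlated at -0.18 to 0.035 across genes, so the numbers were not taken as pairs. Sequences and start sites are from RefSeq on GRCm38.p6, where 9 of 10 members matched. Figures were drawn with matplotlib 3.10.9 and python 3.11.15.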

Additional observations from a re-analysis of the deposited data

How the results depend on the processing

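The calls of Ddit4 and Trib3 in treated cells against iECDCs, and of Ddit4 against pECDCs, passed under every alternative; each other call of a member was lost under at least 1. With the members past the threshold counted, iECDCs against pECDCs gave 3 in the reported fit, 0 to 7 with 1 library left out, 6 with no filter on low counts, 5 with DESeq2, 0 with all 9 libraries in the fit and 0 with a log2 fold change of at least 1. All genes past the threshold there numbered 2258, 1036 to 4467 with 1 library left out and 3088 with no filter on low counts. They numbered 2502 with DESeq2, 671 with all 9 libraries and 512 with a log2 fold change of at least 1. Treated cells against iECDCs gave 2 members, 2 to 6 with 1 library left out, and 4061 genes, 1707 to 7001 with 1 library left out and 1434 with a log2 fold change of at least 1. Without iECDC replicate 3 and SB431542-treated replicate 2 together, an alternative chosen after seeing the data, it gave 6 members and 8951 genes, with Asns at -0.093 and Chac1 at -0.064. Treated cells against pECDCs gave 2 members, 1 to 7 with 1 library left out and 1 with a log2 fold change of at least 1, and 4881 genes, 2453 to 9188 and 1330.

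Signs turned only where a library was left out: against iECDCs, Asns ranged from -0.32 to 0.29, Chac1 from -0.14 to 0.57, Phgdh from -0.48 to 0.11, Psat1 from -0.13 to 0.51 and Slc7a5 from -0.79 to 0.21; against pECDCs, Atf4 ranged from -0.36 to 0.15, Ddit3 from -0.18 to 0.12 and Slc7a5 from -0.14 to 0.69. Of the 50 calls of other genes that met the naming rule, 18 passed under every alternative and none turned, leaving aside the log2 fold change of at least 1, which was applied to counts of genes and not to single genes. With the replicate block, 3 members passed in iECDCs against pECDCs, with Ddit4 (adjusted p = 0.0339) in place of Mthfd2 (adjusted p = 0.0590), 3 in treated cells against iECDCs, with Mthfd2 added (adjusted p = 0.0356), and 2 against pECDCs; genes past the threshold numbered 1791, 3038 and 3886. With 3 libraries a group and 2 that stood apart, differences within an interval that includes 0 could not be told from none. Trib3 and Chac1, at 57 to 227 counts, are the members whose levels are least precise by counting.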

Other observations

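Several further genes parted SB431542-treated replicate 2 from replicates 1 and 3; they were chosen after their values were seen and are given with no test. Slc7a11, which imports cystine for glutathione and is also a target of ATF4 and of NRF2, had 0.254 and 0.191 FPKM in treated replicates 1 and 3 but 2.38 FPKM in replicate 2, above the 2.21, 2.11 and 1.27 FPKM of the iECDC libraries and the 0.926 to 1.01 FPKM of the pECDC libraries. This was the widest gap of any transporter in the list, 3.43 on the log2 scale against the mean of the other two. Atf3 ran the other way, with 3.31 and 3.26 FPKM in treated replicates 1 and 3 and 0.971 FPKM in replicate 2, still above all iECDC libraries at 0.302 to 0.437 FPKM. Hence, among genes of this stress response, treated replicate 2 had more of Slc7a11 and of 9 of the 10 members, all but Ddit3, but less of Atf3 than either of the other two treated libraries.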
